A study of Mus musculus with 12 samples.

Results

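Core mismatch repair genes were described in mouse embryonic stem cell lines that carried a mutant histone H3.1, a hairpin against an H3K9 methyltransferase or a control construct. The 8 genes (Msh3, Msh6, Mlh3, Pms1, Pms2, Exo1, Pcna and Lig1) were chosen by symbol from the 23354 genes listed in every library, for their role in the pathway and not for their levels. All 8 passed the filter on low values and were among the 13109 genes tested. mRNA had been sequenced from 6 groups of stable lines, with 2 libraries in each. In the first arm the lines overexpressed H3.1K9M (histone H3.1 with methionine in place of the lysine K9), H3.1K36M (methionine in place of K36) or the unmutated H3.1WT. In the second arm they carried a hairpin against Suv39h1 (shSuv39h1), a hairpin against Suv39h2 (shSuv39h2) or shNC, read here as the control hairpin. Every group was the J1 strain, grown with serum and leukemia inhibitory factor on inactivated fibroblast feeder cells, which can leave their own RNA in a library. The labels name no deletion of the cells' own H3 genes, and they give neither the promoter of the constructs, nor the number of clones, nor any step that removed the feeders. Nothing in the labels says that the libraries of a group came from separate cultures; every p-value below therefore speaks only of the scatter among these libraries, which may be technical.

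Mismatch repair removes the base mismatches and small loops that a DNA polymerase leaves behind, and cells that lose it accumulate mutations. A MutS pair finds the error: the Msh6 pair binds base mismatches and short loops, and the Msh3 pair binds longer loops. A MutL pair that holds Pms2 then nicks the new strand, the exonuclease Exo1 removes the stretch, the sliding clamp Pcna directs the cut and the resynthesis, and the ligase Lig1 seals the strand. Pms1 and Mlh3 form alternative MutL pairs, and that of Mlh3 is best known for meiotic crossing over. The shared partners of these pairs are not analysed here. Human MSH6 carries a domain that binds trimethylated H3K36, the mark made by SETD2, and this joins the pathway to the histone residue changed in H3.1K36M. Lysine-to-methionine histones block the enzymes that methylate that residue, and Suv39h1 and Suv39h2 encode methyltransferases of H3K9 in heterochromatin. Embryonic stem cells divide quickly, and mismatch repair acts behind each replication fork.

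Promoter windows from RefSeq (GRCm38.p6, from 250 bases before to 50 bases after the transcript start) were found for 7 of the 8 genes, Exo1 being the one without an entry. Shown here are the windows of Msh6 as the recognition gene for base mismatches, of Pcna as the most abundant member and of Pms2 as a gene that starts back to back with a neighbour. They are printed on the strand of the gene, and capitals mark matches, on either strand, to an E2F motif (TTTCCCGC, TTTCGCGC, TTTGCCGC or TTTGGCGC), a GC box (GGGCGG) or a CCAAT box (CCAAT).
Msh6 (chr17:87974800-87975099, plus strand): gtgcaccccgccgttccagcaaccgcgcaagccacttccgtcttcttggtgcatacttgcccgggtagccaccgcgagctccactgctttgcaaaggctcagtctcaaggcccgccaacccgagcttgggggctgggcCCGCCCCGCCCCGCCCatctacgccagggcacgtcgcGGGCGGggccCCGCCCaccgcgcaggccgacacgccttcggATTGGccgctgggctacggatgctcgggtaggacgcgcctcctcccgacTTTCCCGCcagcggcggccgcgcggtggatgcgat
Pcna (chr2:132253131-132253430, minus strand): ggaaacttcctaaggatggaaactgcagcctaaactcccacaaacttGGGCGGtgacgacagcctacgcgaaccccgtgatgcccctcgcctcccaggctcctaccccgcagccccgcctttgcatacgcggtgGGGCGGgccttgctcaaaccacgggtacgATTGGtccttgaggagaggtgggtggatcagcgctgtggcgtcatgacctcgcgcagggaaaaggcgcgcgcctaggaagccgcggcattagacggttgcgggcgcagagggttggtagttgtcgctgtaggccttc
Pms2 (chr5:143909751-143910050, plus strand): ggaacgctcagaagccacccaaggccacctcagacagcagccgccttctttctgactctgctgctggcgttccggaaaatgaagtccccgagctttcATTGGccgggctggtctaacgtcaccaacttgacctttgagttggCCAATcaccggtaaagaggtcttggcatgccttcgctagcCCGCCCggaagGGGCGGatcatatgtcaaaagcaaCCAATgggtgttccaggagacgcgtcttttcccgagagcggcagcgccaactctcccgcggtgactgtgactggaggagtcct
The E2F letters occurred in 2.3% of 27025 mouse promoter windows of this length, the GC box in 35.9% and the CCAAT box in 37.9%. Msh6 held 1 E2F match, at positions 16 to 23 counted from its start. It also held 5 GC boxes, some of which overlap, while at least 4 were found in 5.5% of all windows. Neither Pcna nor Pms2 held the E2F letters in its window. The letters TATAAA, found in 14.2% of all windows, were in none of the 7 members' windows (for Mlh3 and Lig1, which have several starts, in none of their windows). Such matches describe the letters and are not binding sites, and the motifs and the windows shown were chosen with earlier results of these data known.

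In the GENCODE M21 annotation of GRCm38, the genes lie at chr17:87975062-87990892 (Msh6, 10 exons), chr13:92211872-92355003 (Msh3, 24 exons), chr5:143909964-143933968 (Pms2, 15 exons), chr1:53189187-53297018 (Pms1, 13 exons), chr12:85234520-85270599 (Mlh3, 12 exons), chr1:175880581-175913489 (Exo1, 15 exons), chr2:132249162-132253314 (Pcna, 6 exons) and chr7:13277283-13311433 (Lig1, 29 exons). Exon numbers are those of the principal transcript. Pms1 starts 77 bases from Ormdl1, a regulator of sphingolipid synthesis, and Pms2 starts 117 bases from Aimp2, a scaffold of the tRNA synthetase complex. Neither the labels nor the submitters' processing notes say whether the authors' counting used strand, so reads from genes that overlap on opposite strands cannot be told apart.

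Before the members, the libraries were checked against their labels. All 12 embryonic stem cell markers, Pou5f1, Sox2 and Nanog among them, stood above 1 FPKM (fragments per kilobase of transcript, scaled to library size) in all 12 libraries. Fibroblast feeder markers were present too: 31 or 32 of 34 reached 1 FPKM in every library. Their summed level was 3881 and 1764 FPKM in H3.1K9M, 2405 and 2357 FPKM in H3.1K36M, 1332 and 2099 FPKM in H3.1WT, 1692 and 1070 FPKM in shSuv39h1, 2049 and 1663 FPKM in shSuv39h2, and 1490 and 2075 FPKM in shNC. Of these markers Fap was at 0 in H3.1WT replicate 1 and Lum at 0 in shSuv39h1 replicate 1. H3.1K9M replicate 1 stood apart, with the highest feeder level and the lowest mean level of stem cell, S-phase and G2/M genes. Suv39h1 had 4.91 and 5.10 FPKM in shSuv39h1, against 8.58 and 7.52 FPKM in shNC, or 62.2% of the shNC mean, which did not pass (limma, adjusted p = 0.0877). Suv39h2 had 1.61 and 1.76 FPKM in shSuv39h2, against 4.80 and 4.78 FPKM in shNC, and fell to 35.1% of the shNC mean (limma, adjusted p = 0.000304). Suv39h1 also fell in H3.1K36M, to 64.4% of the H3.1WT level (limma, adjusted p = 0.0163), a call that was lost without either H3.1K36M library, without H3.1WT replicate 2 and in the first arm alone. At these depths 1 FPKM of a 2 kb transcript stood for about 42.4 to 56.1 fragments, an approximate value read from the steps between low values.

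The members formed an abundant and a scarce tier that did not overlap in any library. Pcna had the highest levels, 186 to 280.2 FPKM over the 12 libraries with a mean of 232, followed by Msh6 at 100.3 to 130.4 FPKM (mean 121) and Lig1 at 60.9 to 89.6 FPKM (mean 82.2). Each of these 3 was above the next in 12 of 12 libraries. The other 5 lay together far below (Lig1 averaged 10.1 times Pms2), with means of 8.15 FPKM for Pms2, 7.52 for Exo1, 7.14 for Msh3, 6.69 for Pms1 and 6.52 for Mlh3. FPKM are per length, so these levels can be set beside each other. Within the scarce tier all ranges overlapped: Pms2 was the highest of the 5 in 9 libraries and Exo1 in 3, and Mlh3 was the lowest in 7, Pms1 in 3 and Msh3 in 2. Among the 13109 tested genes the means of the abundant members stood at percentiles 93.3 (Lig1) to 97.9 (Pcna), and those of the scarce members at percentiles 41.6 (Mlh3) to 47.7 (Pms2).

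**Figure D1:**
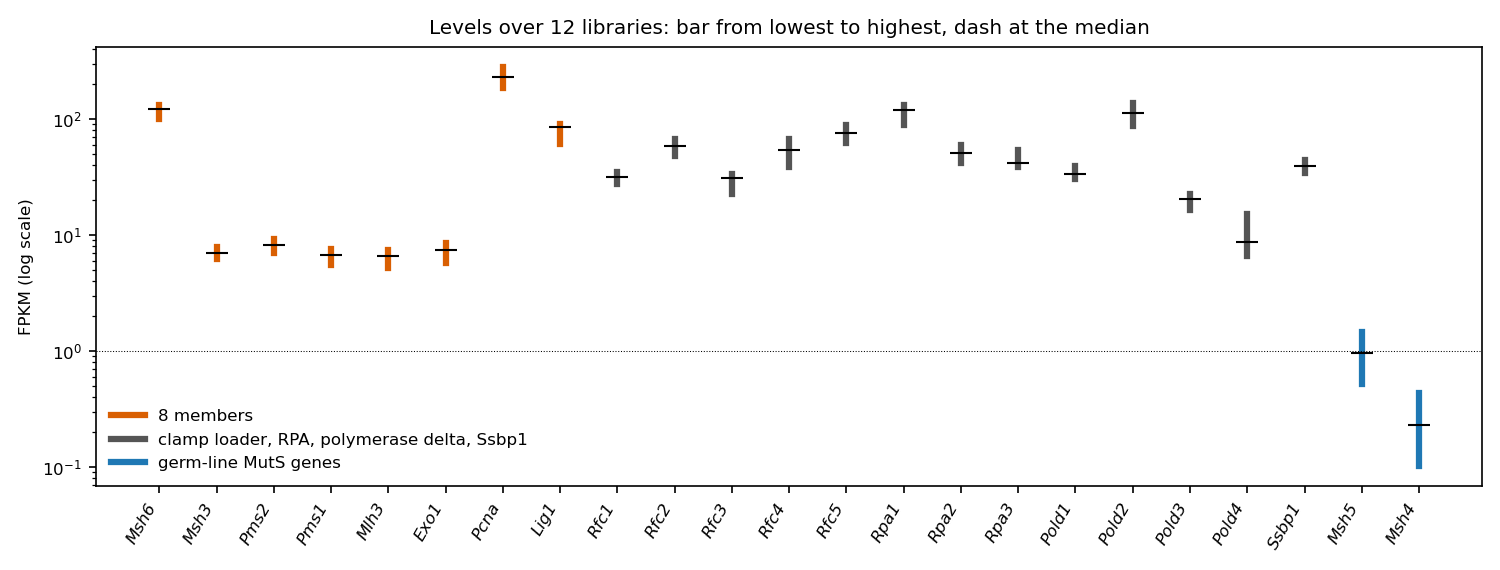
Level of each gene in FPKM on a log axis, with a bar from the lowest to the highest of 12 libraries and a dash at the median; the dotted line is 1 FPKM. Orange marks the 8 members, grey the clamp loader, RPA, polymerase delta and Ssbp1 genes, and blue the germ-line genes Msh5 and Msh4. Pcna, Msh6 and Lig1 stand above the other 5 members, whose bars overlap one another and together span 5.16 to 9.16 FPKM.

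Over the 12 libraries the members varied little. The SD of log2(FPKM + 1) was lowest for Pms2, at 0.09 (percentile 6.51 of all tested genes), and highest for Exo1, at 0.15 (percentile 37.3), against a median of 0.17 for all tested genes. The highest library was 1.27 times the lowest for Msh3 and 1.51 times the lowest for Pcna, with the other members between. Fragments per library were estimated from the approximate depth and the length of the principal GENCODE transcript, which may differ from the length behind the FPKM. So estimated, the level of Pms1 rested on about 403 to 639 fragments in a library and that of Msh6 on about 11009 to 14615. Counting error thus weighs more on the scarce tier.

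Msh6, the recognition gene for base mismatches, was measured at 100.3 and 121 FPKM in H3.1K9M, 129 and 127 FPKM in H3.1K36M, and 113 and 119.7 FPKM in H3.1WT. In the knockdown arm it had 123 and 126 FPKM in shSuv39h1, 119 and 119.8 FPKM in shSuv39h2, and 130.4 and 125 FPKM in shNC. Both H3.1K36M libraries lay above both H3.1WT libraries, both shSuv39h2 libraries lay below both shNC libraries, and H3.1K9M replicate 1 was the lowest of all. Msh3, the recognition gene for longer loops, had 6.94 and 7.91 FPKM in H3.1K9M, 6.70 and 7.71 FPKM in H3.1K36M, and 7.67 and 7.75 FPKM in H3.1WT. It had 6.68 and 6.25 FPKM in shSuv39h1, 6.25 and 7.11 FPKM in shSuv39h2, and 6.89 and 7.81 FPKM in shNC. Only the shSuv39h1 libraries were clear of their control, below it. Because both genes pair with the same partner, their ratio per library was taken: Msh6 stood at 14.4 to 20.2 times the level of Msh3 (mean 17.1). The ratio averaged 14.9 ± 0.609 in H3.1K9M, 17.8 ± 1.95 in H3.1K36M and 15.1 ± 0.480 in H3.1WT (SD, n = 2). In the second arm it averaged 19.3 ± 1.32 in shSuv39h1, 17.9 ± 1.56 in shSuv39h2 and 17.4 ± 2.11 in shNC (SD, n = 2). No test was run on the ratios.

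Pms2, the endonuclease of the main MutL pair, had 7.50 and 7.93 FPKM in H3.1K9M, 8.32 and 8.19 FPKM in H3.1K36M, and 8.06 and 8.27 FPKM in H3.1WT. In shSuv39h1 it had 8.90 and 9.16 FPKM and in shSuv39h2 8.10 and 8.46 FPKM, against 7.04 and 7.85 FPKM in shNC. The H3.1K9M libraries lay below H3.1WT, and those of both hairpins lay above shNC. Mlh3, the MutL gene known for meiotic crossing over, had 5.48 and 6.77 FPKM in H3.1K9M, 6.65 and 6.50 FPKM in H3.1K36M, and 6.45 and 7.46 FPKM in H3.1WT. In shSuv39h1 it had 6.62 and 7.28 FPKM and in shSuv39h2 6.48 and 7.34 FPKM, against 5.16 and 6.05 FPKM in shNC. Here too the hairpin libraries lay above shNC, while the groups of the first arm overlapped. Pms1, whose MutL pair has no settled part in repair, had 5.47 and 7.45 FPKM in H3.1K9M, 7.58 and 6.96 FPKM in H3.1K36M, and 6.53 and 6.84 FPKM in H3.1WT. It had 6.66 and 6.79 FPKM in shSuv39h1, 6.94 and 6.52 FPKM in shSuv39h2, and 6.22 and 6.29 FPKM in shNC. The H3.1K9M libraries were farther apart than those of any other group. Pms2 stood at 1.06 to 1.37 times Pms1 and at 1.11 to 1.37 times Mlh3 in the 12 libraries, so Pms2 was the highest of the 3 in each.

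Exo1, the exonuclease, had 7.46 and 7.24 FPKM in H3.1K9M, 8.30 and 8.48 FPKM in H3.1K36M, and 8.21 and 8.56 FPKM in H3.1WT. It had 6.98 and 7.11 FPKM in shSuv39h1, 6.62 and 8.07 FPKM in shSuv39h2, and 5.75 and 7.50 FPKM in shNC. Both H3.1K9M libraries lay below those of H3.1K36M and H3.1WT, and shNC replicate 1 was the lowest of all. Pcna, the sliding clamp shared with replication, had 221 and 230.1 FPKM in H3.1K9M, 237 and 230.4 FPKM in H3.1K36M, and 225 and 246 FPKM in H3.1WT. It had 229 and 232 FPKM in shSuv39h1, 234 and 280.2 FPKM in shSuv39h2, and 186 and 232 FPKM in shNC. The lowest and the highest value both came from the knockdown arm. Lig1, the replicative ligase, had 60.9 and 80.5 FPKM in H3.1K9M, 86.9 and 83.9 FPKM in H3.1K36M, and 81.2 and 86.8 FPKM in H3.1WT. It had 76.1 and 86.7 FPKM in shSuv39h1, 80.7 and 86.9 FPKM in shSuv39h2, and 86.4 and 89.6 FPKM in shNC. Both H3.1K9M libraries lay below H3.1WT, the second by a narrow margin and the first far below the other 11 libraries. Pcna stood at 3.62 times Lig1 in H3.1K9M replicate 1 and at 2.15 times Lig1 in shNC replicate 1, the ends of the range.

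**Figure D2:**
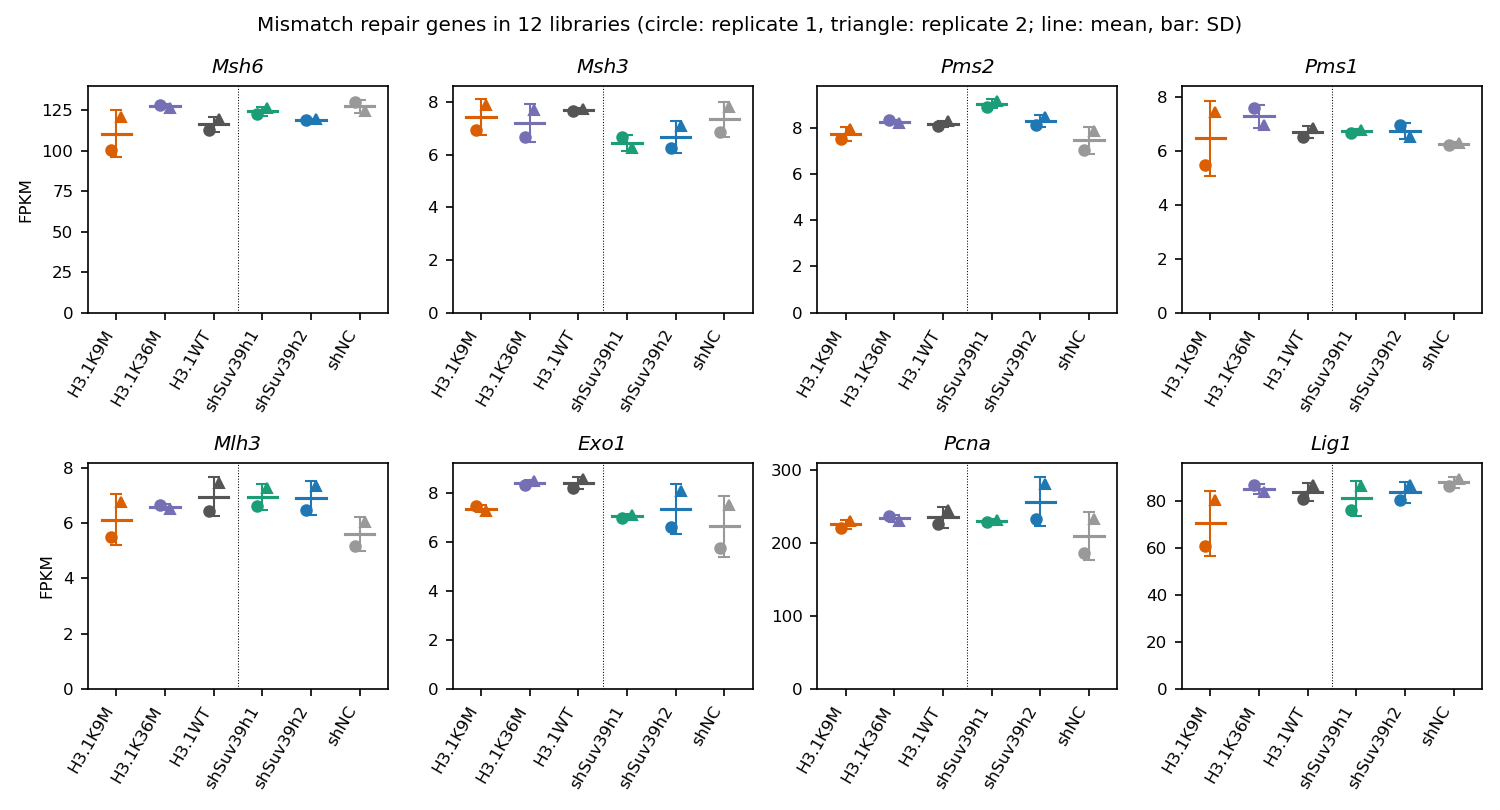
FPKM of each member by group, with the H3.1 lines left of the dotted line and the hairpin lines right of it; circles are replicate 1, triangles replicate 2, horizontal lines means and vertical bars SD (n = 2). Ratios of group means in the 7 comparisons ran from 0.842 to 1.27, and H3.1K9M replicate 1 was lowest for Msh6, Pms1 and Lig1 and shNC replicate 1 lowest for Mlh3, Pms2, Exo1 and Pcna.

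In H3.1K9M against H3.1WT, which asks whether a histone that blocks H3K9 methylation went with other levels of repair genes, all 8 members had a mean below H3.1WT and none passed, but without H3.1K9M replicate 1 only 5 of 8 were below, with Msh3, Msh6 and Pms1 above at 0.03, 0.06 and 0.14 on the log2 scale. The log2 fold changes of (FPKM + 1) ran from -0.26 for Lig1 to -0.05 for Msh3, with a median of -0.08 (-0.03 without that library), against -0.01 over all tested genes. In this comparison 0 of 8 members were called at an adjusted p under 0.05, beside 0.313% of all tested genes. Lig1, at 70.7 ± 13.8 FPKM in H3.1K9M and 84.0 ± 3.94 FPKM in H3.1WT (SD, n = 2), had the largest difference. Its 95% interval ran from -0.53 to 0.02 (limma, adjusted p = 0.469). Libraries did not overlap for Pms2, Exo1 and Lig1, 3 of 8, all below H3.1WT, where 20.6% of all tested genes lay below without overlap, and 0 of 8 lay above, where 14.6% did. Lig1 rested on single libraries: its log2 fold change was -0.06 when H3.1K9M replicate 1 was left out, and -0.46 without the other H3.1K9M library, replicate 2, where it passed (limma, adjusted p = 0.0403). Beside this, 33 of 39 S-phase genes were below 0 and none passed, and 31 of 32 tested feeder markers were above 0 at a median of 0.67 and none passed; without H3.1K9M replicate 1 these were 18 of 39, and 22 of 32 at a median of 0.17. With the mean feeder marker level as a covariate, Lig1 had a log2 fold change of -0.12, and Msh6 and Pms1 lay above 0, at 0.01 and 0.05. The part of the S-phase genes in the members' values was not tested. In bulk RNA a smaller share of stem cells and less RNA per cell cannot be told apart.

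In H3.1K36M against H3.1WT, which changes the residue whose mark human MSH6 reads, no member passed and the fold changes were small. They ran, on the log2 scale, from -0.09 for Msh3 to 0.13 for Msh6, with a median of 0.01, against 0.03 over all tested genes. Here 0 of 8 members were called, beside 4.84% of all tested genes. Msh6 averaged 128 ± 1.34 FPKM in H3.1K36M and 116 ± 4.64 FPKM in H3.1WT (SD, n = 2). Its log2 fold change of 0.13 had a 95% interval from -0.07 to 0.33 (limma, adjusted p = 0.442). Libraries of Msh6 and Pms1 lay above H3.1WT without overlap, 2 of 8 members, where 38.2% of all tested genes did, and 0 of 8 lay below, where 27.6% did. Setd2, which encodes the enzyme that trimethylates H3K36, had 18.3 and 18.9 FPKM in H3.1K36M and 16.5 and 16.9 FPKM in H3.1WT, a difference of 0.14 on the log2 scale that did not pass (limma, adjusted p = 0.294). Among the feeder markers 3 of 32 rose (Postn, Col6a2 and Col3a1) and all 32 were above 0 (26 without H3.1WT replicate 1), while no S-phase gene passed. With the mean feeder marker level as a covariate, the log2 fold change was 0.23 for Msh6, 0.22 for Pms1 and 0.18 for Lig1, and none passed.

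**Figure D3:**
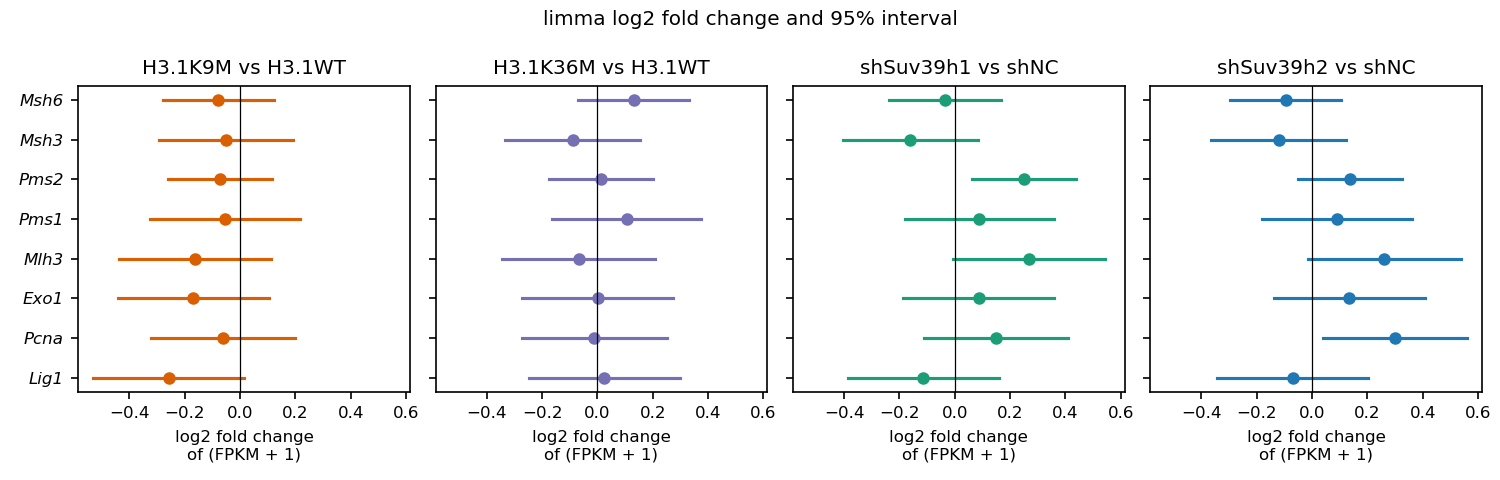
Log2 fold change of (FPKM + 1) of each member in 4 comparisons, as points with 95% intervals from the limma fit across all 12 libraries. All 8 points lie below 0 in H3.1K9M against H3.1WT, or 5 of 8 without H3.1K9M replicate 1, and the intervals that leave out 0 are those of Pms2 in shSuv39h1 and Pcna in shSuv39h2, neither of which passed after adjustment.

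Set directly against each other, the mutant histones differed most in Lig1 and Msh6, and neither passed. Msh6 had a log2 fold change of 0.21 in H3.1K36M over H3.1K9M (limma, adjusted p = 0.195) and Lig1 one of 0.28 (limma, adjusted p = 0.200). In this comparison 0 of 8 members were called, beside 8.24% of all tested genes. Libraries of 5 members (Msh6, Pms2, Exo1, Pcna and Lig1) lay above H3.1K9M without overlap, where 31.5% of all tested genes did, and none lay below, where 20.5% did; the margin for Pcna was under 1 FPKM. Both differences hung on one library: without H3.1K9M replicate 1 the log2 fold change was 0.08 for Msh6 and 0.08 for Lig1. Without H3.1K9M replicate 2 they were 0.35 and 0.48 and both passed (limma, adjusted p = 0.0232 for Msh6 and 0.0193 for Lig1).

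In shSuv39h1 against shNC a pair of the MutL genes had the highest fold changes, Mlh3 at 0.27 and Pms2 at 0.25 on the log2 scale, and no member passed. The other MutL gene, Pms1, was at 0.09, below Pcna at 0.15. Without shNC replicate 1 Mlh3 was at 0.17, Pms2 at 0.18 and Pcna at -0.01. Called were 0 of 8 members, beside 0.145% of all tested genes, so few genes of any kind passed. Pms2 averaged 9.03 ± 0.183 FPKM in shSuv39h1 and 7.45 ± 0.572 FPKM in shNC (SD, n = 2). Its log2 fold change had a 95% interval from 0.06 to 0.44 (limma, adjusted p = 0.334). For Mlh3, at 6.95 ± 0.466 FPKM in shSuv39h1 and 5.60 ± 0.627 FPKM in shNC (SD, n = 2), the interval ran from -0.01 to 0.54 (limma, adjusted p = 0.484). Mlh3, Pms1 and Pms2 lay above shNC without overlap, 3 of 8 members where 26.8% of all tested genes did, and Msh3 lay below, where 12.7% did. The median over the members was 0.09 (-0.01 without shNC replicate 1), against 0.04 over all tested genes, and the 32 tested feeder markers were all below 0 at a median of -0.39 with none called (27 below at -0.16 without replicate 2 of either group). With the mean feeder marker level as a covariate, Mlh3 was at 0.24 and Pms2 at 0.25.

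In shSuv39h2 against shNC Pcna had the highest fold change of the members, Mlh3 followed, and again none passed. Called were 0 of 8 members, beside 10.0% of all tested genes. Pcna averaged 257 ± 33.0 FPKM in shSuv39h2 and 209 ± 32.8 FPKM in shNC (SD, n = 2), and its log2 fold change was 0.30 with a 95% interval from 0.04 to 0.56 (limma, adjusted p = 0.140). Without shNC replicate 1 the value was 0.14, and without shNC replicate 2 it was 0.46 and passed (limma, adjusted p = 0.0368). Mlh3 differed by 0.26 on the log2 scale (limma, adjusted p = 0.216), and by 0.16 without shNC replicate 1. Mlh3, Pms1, Pms2 and Pcna lay above shNC without overlap, 4 of 8 members where 29.5% of all tested genes did, and Msh6 lay below, where 21.3% did. The comparison shares its shNC libraries with that of shSuv39h1, so the fold changes of Mlh3 and Pms2 in both rest on the same pair of controls, of which shNC replicate 1 was the lowest library for Mlh3, Pms2, Exo1 and Pcna. The hairpins were also set against each other: 0 of 8 members were called in shSuv39h1 over shSuv39h2, beside 6.56% of all tested genes, with log2 fold changes from -0.15 for Pcna (-0.02 without shSuv39h2 replicate 2) to 0.11 for Pms2. Msh6 and Pms2 lay above shSuv39h2 without overlap, where 30.0% of all tested genes did, and Pcna lay below, where 28.7% did.

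The control lines gave the background between the arms. In H3.1WT over shNC the log2 fold changes ran from -0.13 for Msh6 to 0.31 for Exo1. Exo1 had the largest log2 fold change of any member in the 7 comparisons of 2 groups, at 8.38 ± 0.245 FPKM in H3.1WT and 6.62 ± 1.24 FPKM in shNC (SD, n = 2), and it did not pass (limma, adjusted p = 0.372). That value rested on shNC replicate 1, without which it was 0.14 for Exo1, below Mlh3 at 0.17. Of the members 0 of 8 were called, beside 0.336% of all tested genes. Mlh3, Pms1, Pms2 and Exo1 lay above shNC without overlap, where 23.1% of all tested genes did, and Msh6 lay below, where 16.3% did. Over the 7 comparisons of 2 groups, 0 of 56 member tests passed and 5 had an unadjusted p under 0.05, as did 17.8% of the tests of all genes. All 95% intervals of those 56 tests lay between -0.53 and 0.58 on the log2 scale, and the ratio of mean FPKM ran from 0.842 to 1.27.

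Both the mutant histone and the hairpins bear on H3K9 methylation, so the difference between their effects was tested in the same fit. For the effect of H3.1K9M minus that of shSuv39h1, Mlh3 had -0.43 on the log2 scale (limma, adjusted p = 0.328) and Pms2 -0.32 (limma, adjusted p = 0.302). Without H3.1K9M replicate 1 Mlh3 was at -0.30, and without shNC replicate 1 Pms2 was at -0.25. None of the 13109 tested genes passed in this contrast, 0.0% of them and 0 of 8 members, while 1788 had an unadjusted p under 0.05. For the effect of H3.1K9M minus that of shSuv39h2, Mlh3 had -0.42 (limma, adjusted p = 0.302) and Pcna -0.36 (limma, adjusted p = 0.346). Mlh3 was at -0.29 without H3.1K9M replicate 1, and Pcna at -0.20 without shNC replicate 1. Called were 0 of 8 members, beside 0.16% of all tested genes.

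Genes that act beside the members were taken from a list of 13: the clamp loader (Rfc1 to Rfc5), the single-strand binding protein RPA (Rpa1 to Rpa3), polymerase delta (Pold1 to Pold4) and Ssbp1, the mitochondrial single-strand binding protein. All 13 were tested, and their lowest and highest levels ran from 6.59 FPKM for Pold4 to 137 FPKM for Pold2. In H3.1K9M against H3.1WT 0 of 13 passed, beside 0.313% of all tested genes, with a median of -0.12 (-0.07 without H3.1K9M replicate 1). In H3.1K36M against H3.1WT 0 of 13 passed, beside 4.84%, with a median of -0.07 (-0.03 without H3.1WT replicate 1). The medians of all tested genes were -0.01 and 0.03. In shSuv39h1 and shSuv39h2 against shNC the list medians were 0.15 and 0.09, against 0.04 over all tested genes in both. Without shNC replicate 1 the list medians were 0.09 and 0.07. Pold4, the smallest subunit of polymerase delta, was the one that passed anywhere. It had 15.1 and 11.7 FPKM in shSuv39h2, against 7.69 and 7.89 FPKM in shNC, and rose by 0.70 on the log2 scale (limma, adjusted p = 0.00713, and 0.0522 without shSuv39h2 replicate 1). It had 7.01 and 6.59 FPKM in H3.1K36M, against 11.8 and 11.4 FPKM in H3.1K9M, and was lower by 0.69 on the log2 scale (limma, adjusted p = 0.00761, a call lost without either H3.1K36M library). Its libraries did not overlap in either comparison. In H3.1WT Pold4 lay between the mutant histones, at 8.48 and 8.09 FPKM. Between the hairpins Pold4 was lower in shSuv39h1 than in shSuv39h2 (log2 fold change -0.46; limma, adjusted p = 0.0491), and that call was lost in 13 of 20 alternatives. The germ-line MutS genes Msh5 (0.515 to 1.45 FPKM) and Msh4 (0.102 to 0.437 FPKM) lay far below all members, Msh4 under the filter and Msh5 with no call.

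The neighbours that start beside members described here were at 6.75 to 8.42 FPKM for Ormdl1, close to Pms1, and at 57.4 to 80.6 FPKM for Aimp2, on average 8.59 times Pms2. Neither was called in the 7 comparisons of 2 groups. Gm28778 beside Pms1 and the antisense gene AV099323 beside Pcna are not analysed here. Across the 12 libraries, which share groups and depth, log2 levels gave a Pearson r of 0.11 for Pms1 and Ormdl1 and 0.38 for Pms2 and Aimp2, which are weak.

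S-phase genes, a list of 39 replication genes, gave the cell cycle side of the libraries. In shSuv39h2 against shNC 701 of the 13109 tested genes rose and 615 fell, 10.0% in either direction. Of the S-phase genes 4 of 39 rose there (Pola2, Pola1, Rrm2 and Fen1) and 0 fell. Of these Pola2, the second subunit of polymerase alpha, had 53.0 and 58.8 FPKM in shSuv39h2, against 27.0 and 33.2 FPKM in shNC (log2 fold change 0.88; limma, adjusted p = 0.00313), and it passed in all 20 alternatives, while the others each lost the call in 3 to 11. The median of the list was 0.15 there (0.06 without shNC replicate 1), beside 0.30 for Pcna, and the part of the list in the value of Pcna was not tested. Of 29 G2/M genes 1 rose in that comparison (Kif11, a spindle motor gene, a call lost in 3 of 20 alternatives, those without shNC replicate 1 or either shSuv39h2 library), and the list had a median of 0.02. By library, the mean log2 level of the S-phase genes was lowest in H3.1K9M replicate 1, at 5.01, and next lowest in shNC replicate 1, at 5.05, and the mean over the 8 members was lowest in the same libraries, at 4.37 and 4.41. Over the 12 libraries both means had a Pearson r of 0.78 and a Spearman rho of 0.52. Without H3.1K9M replicate 1 and shSuv39h2 replicate 2, the farthest from the median S-phase level, r was 0.61. For the feeder marker mean and the members r was -0.18 and rho 0.13, and r was 0.50 without H3.1K9M replicate 1 and shSuv39h1 replicate 2. These are descriptions over libraries that share groups and scaling, and were added with the values known.

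**Figure D4:**
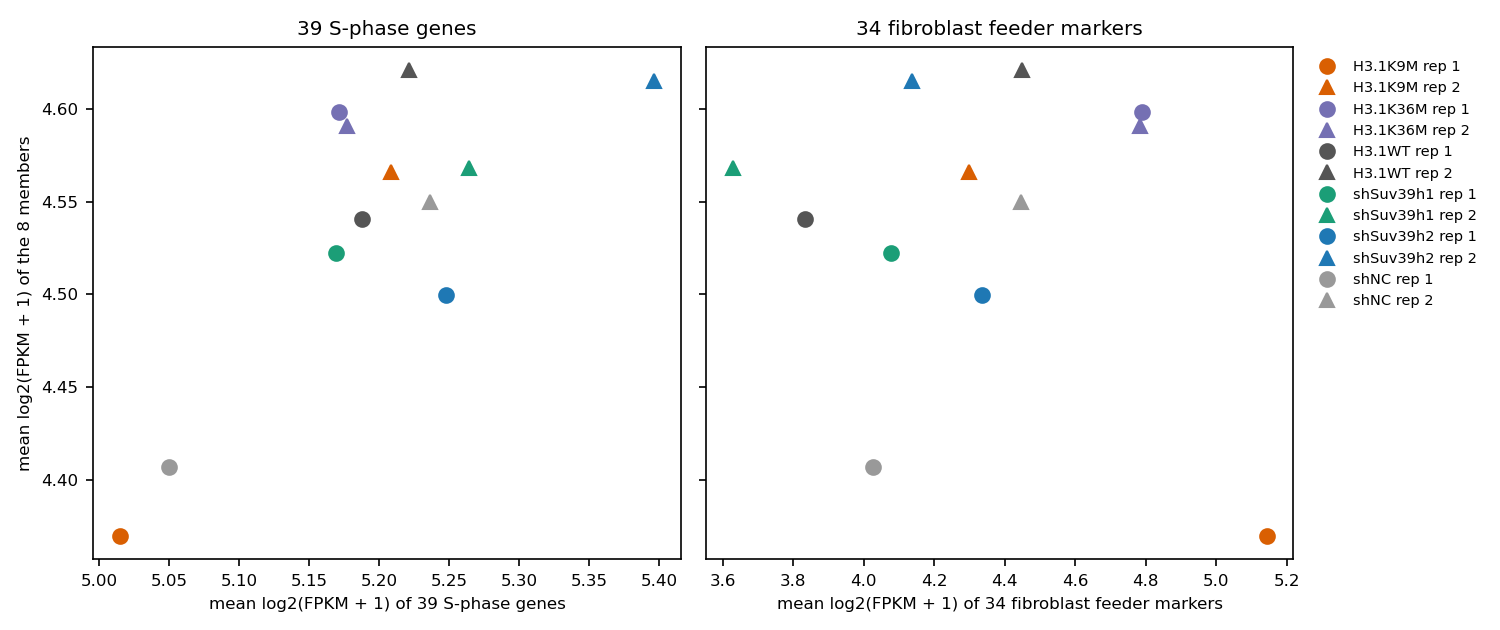
Mean log2(FPKM + 1) of the 8 members in each library, against that of 39 S-phase genes (left) and of 34 fibroblast feeder markers (right); color marks the group, circles replicate 1 and triangles replicate 2. H3.1K9M replicate 1 and shNC replicate 1 have the lowest member means, 4.37 and 4.41, and the lowest S-phase means, 5.01 and 5.05.

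Among themselves the members were loosely correlated. Of 28 pairs 24 had a Pearson r above 0 over the 12 libraries, with a median of 0.27, and without H3.1K9M replicate 1 only 17 did, with a median of 0.12. The pair Msh6 and Lig1 had 0.85, which was 0.41 without H3.1K9M replicate 1. Mlh3 had 0.83 with Pms2 and 0.81 with Pcna (Spearman rho 0.77 and 0.71), which were 0.80 and 0.84 without that library. However, the lowest library for Mlh3, Pms2 and Pcna was shNC replicate 1, and the values of these pairs without it are not given here. Among 8235 other genes with a mean of at least 5 FPKM, those most like the mean standardized profile of the members over the 12 libraries were Nup107 (a nuclear pore gene, r = 0.96), Herc4 (a ubiquitin ligase gene, r = 0.96), Prcc (r = 0.94), Actr6 (r = 0.93) and Xrcc6 (the Ku70 end-joining gene, r = 0.93). For single members the closest were Ap3b1 for Msh6 (r = 0.94), Sms for Msh3 (r = 0.86), Bex2 for Pms2 (r = 0.93), Rtca for Pms1 (r = 0.93), Btf3l4 for Mlh3 (r = 0.96), Rnf44 for Exo1 (r = 0.96), Timm8a1 for Pcna (r = 0.98) and Dnajc21 for Lig1 (r = 0.91). As the best of 8235 genes, such values are high by selection. By rank, the single-member pairs had a Spearman rho from 0.59 (Dnajc21 and Lig1) to 0.96 (Rnf44 and Exo1). For Timm8a1 and Pcna rho was 0.69. Dnajc21 and Lig1 were both lowest in H3.1K9M replicate 1, and Timm8a1 and Pcna in shNC replicate 1.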

How the data were processed

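FPKM values per gene were deposited by the authors, 1 file per library. Per the submitters' processing notes TopHat2 2.0.13, Cuffdiff 2.2.1 and mm10 were used; their settings and the annotation are not stated there, and the labels' protocols name a pair of library kits and no strand setting. From the deposited FPKM, log2(FPKM + 1) of genes reaching 1 FPKM in 2 or more libraries was fitted with limma 3.58.1 (R 4.3.3, with an intensity trend), 1 mean per group over all 12 libraries, two-sided, with Benjamini-Hochberg adjustment over 13109 genes and a threshold of 0.05. Fold changes on this scale understate those of low genes. The script was tested on simulated data with planted changes larger than any measured in the members. That test does not speak to differences of the size seen in the members. The deposited files hold no counts. Depth was estimated from steps between low values, at the scale that brought these values nearest to whole fragments. At that scale 47.1% to 57.3% of them were whole fragments within 0.05. Evenly spread values would give 10% at a scale not fitted to them, so the 10% is no baseline for the fitted scale. The search range was narrowed after seeing the data, and the depth is approximate. Members, gene lists and tests were chosen with earlier results of these data known. Genes named beside the members were the hairpin targets, Setd2, neighbours with a start within 1000 bases (some results on neighbours and promoter windows are not reported here), the 13 pathway genes, Msh4 and Msh5, the genes of each list with the smallest p, and the genes closest in pattern. Alternatives were another pseudocount, 2 other filters, 2 scalings, the replicate block, a fit per arm, a feeder marker covariate, and each library left out in turn.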

Additional observations from a re-analysis of the deposited data

Results flagged for a closer look

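Pms2 was picked out because its libraries lay on opposite sides of their controls in H3.1K9M and in the hairpin lines, though it passed in none of these comparisons. Both H3.1K9M libraries lay below both H3.1WT libraries (7.50 and 7.93 against 8.06 and 8.27 FPKM), and both libraries of each hairpin lay above both shNC libraries (8.90 and 9.16 FPKM in shSuv39h1 and 8.10 and 8.46 FPKM in shSuv39h2, against 7.04 and 7.85 FPKM in shNC). Of all tested genes 20.6% lay below H3.1WT in this way, and 26.8% (shSuv39h1) and 29.5% (shSuv39h2) above shNC. The share of genes that did so jointly is not given here, and the hairpin comparisons share their shNC libraries. The difference of the effects was -0.322 on the log2 scale for H3.1K9M minus shSuv39h1 (limma, adjusted p = 0.302) and -0.209 for H3.1K9M minus shSuv39h2 (limma, adjusted p = 0.439), so neither passed. Without shNC replicate 1 these differences were -0.25 and -0.14.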

How the results depend on the processing

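No member was called with all libraries kept: of 552 member values under the other pseudocount, filters, scalings, block, arm and covariate fits, 0 were newly called, 17 changed sign and 6 moved by over 1 SE, those 6 with the feeder marker covariate. With a library left out, 4 of 864 were newly called, those named in the report, and over all 1416 alternatives 57 changed sign. The number of members called ran from 0 to 1 in H3.1K9M against H3.1WT, 0 to 2 in H3.1K36M against H3.1K9M, 0 to 1 in shSuv39h2 against shNC, and stayed at 0 elsewhere.
Counts of called genes moved more. In H3.1K9M against H3.1WT they were 12 with no filter, 27 with a filter of 5 FPKM and 2 in the first arm alone (2 to 696 with a library left out, the highest without H3.1K9M replicate 2). For H3.1K36M against H3.1WT they were 354 with that filter and 191 in the arm alone (58 to 1189), and for H3.1K36M against H3.1K9M 663, 521 and, with the feeder covariate, 2020 (209 to 1422). For shSuv39h1 against shNC they were 11 with a pseudocount of 0.1, 3 in the arm alone and 48 with the covariate (0 to 59), for shSuv39h2 against shNC 861 and 2295 with the last pair of settings (358 to 2000), and for shSuv39h1 against shSuv39h2 367 in the arm alone (76 to 1442). H3.1WT against shNC gave 29 with the filter and 191 with the covariate (7 to 158). The contrast of H3.1K9M with shSuv39h1 gave 1 with a pseudocount of 0.1 (0 to 703), and that with shSuv39h2 gave 53 with it, 36 with the filter, 39 with median-of-ratios scaling, 35 with quantile normalization and 260 with the covariate (4 to 563). The cause was not tested.
Replicate numbers were not taken as pairs in the main fit. Deviations of same-numbered libraries correlated at -0.384 to 0.517 over 15 pairs of groups, 4 of them over 0.1. These values cannot tell whether same-numbered libraries of some groups share a batch. A replicate block gave 10 calls, against 19, in shSuv39h1 against shNC and 0 members in any comparison. The scarce members rest on fewer fragments than the abundant ones, and whether depth limits their values was not tested. All members are limited by having 2 libraries a group.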
